A study of Mus musculus with 2 samples.

Results

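Semaphorins, plexins and neuropilins form a family of guidance ligands and their receptors, and 31 genes of the mouse family were followed here, chosen by name among the 32285 genes listed in both count matrices. They are 20 semaphorins, 9 plexins and 2 neuropilins. The semaphorins divide into 7 secreted class 3 genes and 13 membrane-bound genes, of which 6 belong to class 4, 2 to class 5, 4 to class 6 and 1 to class 7. The plexins divide into 4 of type A, 3 of type B and 1 each of types C and D. Each symbol matched 1 gene. For every member the unique molecular identifiers (UMIs, 1 per captured RNA molecule) were summed over the cells of a class in each embryo and divided by all UMIs of those cells, scaled to 1000000 UMIs (CPM).

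The study profiled single cells of the cerebral cortex of 2 wild-type mouse embryos, taken at embryonic day 16.5 (E16.5), with 1 library for each embryo. The study's text describes the embryos of its single-cell work at this age as C57BL/6J mice. The embryos carry the numbers 4 and 5 and come from a line labelled EoMltt3, whose design text speaks of EomesMllt3 control embryos. No treatment is named, and the labels do not say whether the embryos carry a Cre allele. The tissue label gives brain hemispheres and the protocol a dissected cortex, dissociated with papain and run on the 10x Genomics 3′ v3.1 chemistry. This chemistry counts the 3′ end of each RNA whatever its length. Levels of different genes are given side by side, and no test compared them. The library of embryo 4 held 12825 barcodes and 124318613 UMIs, and that of embryo 5 held 12289 barcodes and 117679925 UMIs, with a median of 9355 and 8853 UMIs per barcode. The libraries shared 46 barcodes, 0.359% and 0.374% of each. There is a single condition, so the comparisons were made between cell classes. Since all sums come from 2 embryos, the p-values measure the spread between sums of these embryos. Wherever a pair of values is given, the first is from embryo 4 and the second from embryo 5.

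Semaphorins steer growing axons and migrating neurons. A class 3 semaphorin typically binds a neuropilin, which holds the ligand while a plexin-A passes the signal into the cell, whereas membrane-bound semaphorins bind plexins directly. The tail of a plexin acts on small GTPases of the Ras family, and further proteins such as the CRMPs and MICALs carry the signal to microtubules and actin. In the developing cortex the system is known for guiding radial migration and callosal and corticofugal axons, for sorting interneurons on their way from the ganglionic eminences, and, in the same tissue, for patterning blood vessels.

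After filtering, 9932 and 10416 cells remained. Clusters were built without the members and without the pathway genes described later, and were named from marker lists. Most cells were excitatory neurons (5679 and 6068 cells), followed by progenitors (2363 and 2484), interneurons (961 and 946) and other cells (929 and 918). Within these broad classes the finer classes were radial glial cell (RGC)-like (1394 and 1466 cells), intermediate progenitor cell (IPC)-like (918 and 981), immature excitatory neuron-like (1799 and 1942), upper-layer neuron-like (614 and 768), deep-layer neuron-like (1379 and 1472), and interneuron-like cells of medial (MGE, 713 and 667) and caudal (CGE, 248 and 279) ganglionic eminence type. Among other cells were Cajal-Retzius-like (133 and 105), lateral ganglionic eminence (LGE)-type neuron-like (273 and 219), mural-like (51 and 47), endothelial-like (24 and 30), choroid plexus-like (29 and 28) and microglia-like (22 and 25) cells. OPC-like cells (22 and 10) and meningeal fibroblast-like cells (0 and 54) were too few in 1 embryo to be compared. No fine name was given to 2313 and 2323 cells (23.3% and 22.3%), of which 375 and 400 (3.78% and 3.84% of all kept cells) were left among other cells. Of the rest, a cluster of 51 and 37 cells entered progenitors and all others entered excitatory neurons. These unnamed excitatory neurons are in no level or test of the immature, upper-layer and deep-layer classes, which therefore do not cover all excitatory neurons. The microglia-like cluster was led by *Apoe*, *C1qb* and *Tyrobp*, with *Pf4* and *Mrc1* also among its leading genes, and the hemoglobin gene *Hba-a2* was among those of a CGE-like cluster. A cluster of 75 cells (50 and 25) among the Cajal-Retzius-like ones had no marker of that class among its 10 leading genes, which included *Snhg11*, *Cntn4* and *Grm8*. It scored 1.21 for that class, 0.93 for LGE-type neurons and 0.013 for GABAergic markers, and levels given for Cajal-Retzius-like cells include it. The same lack of own markers among the leading genes held for 3 clusters of immature excitatory neuron-like cells (668, 306 and 94 cells), a CGE-like one (118), 2 RGC-like ones (961 and 318) and an IPC-like one (476).

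The markers fitted a cortical sample with cells from beside it. The 12 RGC markers summed to 7826 and 7767 CPM in RGC-like cells and to 379 and 300.2 in immature excitatory neuron-like cells, and the 8 IPC markers to 2412 and 2303 CPM in IPC-like against 273 and 211 in RGC-like cells. The 12 deep-layer markers reached 11583 and 11479 CPM in deep-layer and 3411 and 3487 in upper-layer neuron-like cells. The 10 upper-layer markers separated those classes less, with 4934 and 5231 against 1663 and 1748 CPM. LGE-type, Cajal-Retzius-like and choroid plexus-like cells belong to tissue beside the cortical plate or at its surface, and the 6 choroid plexus markers summed to 5547 and 88957 CPM in the class named for them, so they took a larger share of the RNA in embryo 5. Hemoglobin and other erythroid markers formed no class of their own, yet 7 of them summed to 9989 and 706 CPM in CGE interneuron-like and 341 and 3632 CPM in IPC-like cells, with the higher value in a different embryo each time, and their part in the results was not tested.

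Members of the family took 0.297% and 0.322% of all UMIs of the kept cells, and the median cell held UMIs of 7 and 6 members. In whole libraries *Plxna4*, a plexin-A receptor, stood at 842 and 968 CPM and *Plxna2*, another, at 595 and 648, while *Plxnb3* was nearly absent at 0.105 and 0.153 CPM. Such library values mix all classes, and the levels by class differed widely, as the map of all members by class shows.

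**Figure D1:**
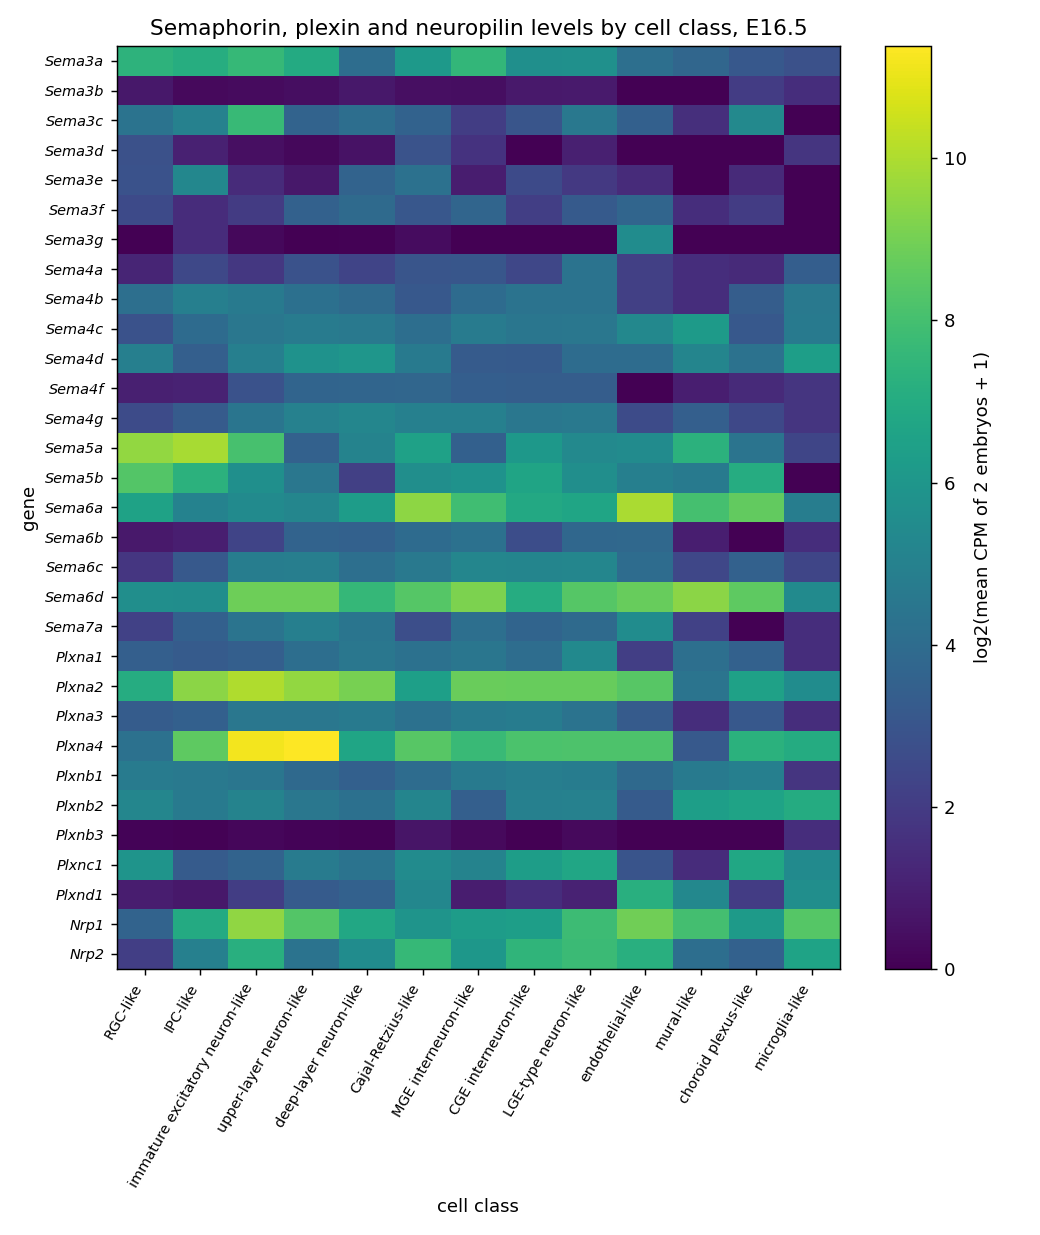
Levels of the 31 members (vertical axis) in 13 cell classes (horizontal axis), coloured by log2 of the mean CPM of 2 embryos plus 1. *Plxna4* is brightest in immature and upper-layer neuron-like cells, *Sema5a* in RGC-like and IPC-like cells and *Sema3g* is dark outside endothelial-like cells.

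The secreted class 3 ligands differed in the classes that held them. *Sema3a*, a repellent of axons that signals through neuropilin-1, was present in progenitors and in migrating neurons, with 154 and 169 CPM in RGC-like, 125 and 144 in IPC-like and 203 and 194 in immature excitatory neuron-like cells. It stayed high in upper-layer neuron-like cells (128 and 122 CPM) and was low in deep-layer neuron-like cells (13.6 and 17.8 CPM), with no overlap between the embryos of those classes. Among interneurons it was high in MGE-like (171 and 195 CPM) and lower in CGE-like cells (45.4 and 55.0 CPM).

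*Sema3c*, a ligand of both neuropilins, was highest at the immature stage of the excitatory lineage. It reached 187 and 215 CPM in immature excitatory neuron-like cells, against 28.0 and 34.2 in IPC-like, 17.2 and 21.3 in RGC-like, 8.67 and 13.6 in upper-layer and 16.8 and 15.9 in deep-layer neuron-like cells. By the rule used here a member is peaked in a class where its CPM is at least 2 times that of the next class in both embryos, with more than 3 UMIs there in each, and *Sema3c* met it, at 4.67 and 5.39 times the next class. The rule was applied to the cells kept here only. Under other filters *Sema3c* was higher in the upper-layer than in the deep-layer class, as given below, and whether it stayed peaked was not tested. At least 1 UMI of *Sema3c* was found in 52.5% and 54.1% of immature excitatory neuron-like cells and in 6.84% and 9.51% of upper-layer neuron-like cells. With every cell thinned to 3000 UMIs these shares were 33.5% (95% interval 31.3% to 35.8%) and 37.7% (95% interval 35.5% to 39.9%) in the immature class and 1.495% and 2.90% in the upper-layer class. Mural-like cells, which should lack neuronal transcripts, gave 0% and 4.26% as counted, at a median depth of 10549 and 10449 UMIs against 8938 and 7604 in the immature class, and 0 of 51 and 0 of 47 cells when thinned. The intervals, exact binomial at 95%, cover counting error only. For cells with a UMI, a floor of 3 cells in place of 0 is a share of 5.88% and 6.38% there, and the exact intervals end at 6.98% and 7.55%.

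*Sema3e*, which binds plexin-D1 without a neuropilin, had its highest level in IPC-like cells. It stood at 35.6 and 38.5 CPM there, against 6.75 and 6.07 in RGC-like and 1.69 and 1.57 in immature excitatory neuron-like cells, and appeared again in deep-layer neuron-like cells at 14.1 and 8.64 CPM and in Cajal-Retzius-like cells at 19.1 and 16.7 CPM. Upper-layer neuron-like cells held 0.853 and 0.5002 CPM. The ligand was thus lower in immature than in IPC-like cells, and higher in the deep-layer than in the upper-layer class. *Sema3f*, the repellent that acts through neuropilin-2, was at 14.7 and 14.1 CPM in deep-layer, 12.4 and 8.63 in upper-layer neuron-like and 10.9 and 13.2 in MGE interneuron-like cells, and at 1.60 and 1.89 CPM in IPC-like cells.

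The remaining class 3 genes were scarce in neurons. *Sema3d*, known from cardiac and vascular guidance, was at 7.001 and 5.21 CPM in RGC-like and 2.81 and 10.2 in Cajal-Retzius-like cells. Meningeal fibroblast-like cells, found in embryo 5 only, held 80.9 CPM of it. *Sema3g*, a ligand known from blood vessels, was peaked in endothelial-like cells at 34.6 and 56.0 CPM, from 5 and 17 UMIs. IPC-like cells came next with 1.81 and 1.65 CPM, and no UMI was counted in RGC-like cells. *Sema3b* gave 55 and 53 UMIs in whole libraries, too few for an order of classes.

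Class 4 semaphorins, membrane ligands known mainly as partners of plexin-B receptors, were found in most classes. *Sema4d*, the ligand of plexin-B1, was high in deep-layer (59.9 and 64.9 CPM) and upper-layer neuron-like cells (52.7 and 55.7 CPM) and in microglia-like cells (93.2 and 70.3 CPM), and low in interneurons (8.12 and 9.14 CPM). Within progenitors it was higher in RGC-like cells (28.0 and 30.9 CPM) than in IPC-like cells (12.2 and 7.43 CPM). *Sema4c*, a plexin-B2 ligand, was at 99.1 and 44.9 CPM in mural-like and 6.36 and 6.27 in RGC-like cells. *Sema4g*, a further plexin-B2 ligand, stood at 5.54 and 4.61 CPM in RGC-like, 20.5 and 20.1 in immature and 36.9 and 36.3 in deep-layer neuron-like cells, and so was lower in progenitors than in neurons. *Sema4f* was close to 0 in RGC-like cells (0.382 and 1.67 CPM) and reached 12.1 and 12.4 CPM in deep-layer neuron-like cells.

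*Sema4b* was measured at 17.6 and 16.2 CPM in RGC-like, 27.7 and 30.1 in IPC-like and 14.6 and 13.6 in deep-layer neuron-like cells. *Sema4a*, known from the immune system and the retina, differed widely between the embryos, at 8.42 and 0.708 CPM in IPC-like cells. Its level in LGE-type neuron-like cells was 14.3 and 23.6 CPM. The embryos thus give its level in IPC-like cells only as a wide range.

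Class 5 semaphorins, membrane ligands with thrombospondin repeats, were highest in progenitors among the neural cells of the excitatory lineage. *Sema5a* stood at 703 and 802 CPM in RGC-like and 862 and 1064 CPM in IPC-like cells, fell to 275 and 269.8 in immature excitatory neuron-like cells, and was at 30.5 and 36.2 in deep-layer and 9.95 and 11.0 in upper-layer neuron-like cells. *Sema5b* was at 302 and 339.5 CPM in RGC-like, 149 and 164 in IPC-like and 49.0 and 50.3 in immature cells. The layers differed in opposite ways for the pair, since *Sema5b* was at 23.7 and 20.3 CPM in upper-layer and 4.19 and 2.74 in deep-layer neuron-like cells. CGE interneuron-like cells kept 101 and 96.7 CPM of *Sema5b* and 61.1 and 69.6 CPM of *Sema5a*, while MGE interneuron-like cells held 9.87 and 10.7 CPM of *Sema5a*.

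Class 6 semaphorins, transmembrane ligands of plexin-A receptors, included genes of vessels and of postmitotic neurons. *Sema6a*, a ligand of plexin-A2 and plexin-A4, was high in endothelial-like (1119.7 and 856 CPM) and Cajal-Retzius-like cells (706 and 677 CPM) and was at 249 and 229 CPM in MGE interneuron-like cells. In the excitatory lineage it was lower, with 97.4 and 91.9 CPM in RGC-like, 33.6 and 31.6 in IPC-like and 32.8 and 40.6 in upper-layer neuron-like cells. *Sema6d*, a plexin-A1 ligand, changed between IPC-like cells (42.1 and 51.4 CPM) and immature excitatory neuron-like cells (400.0 and 527 CPM), and was also high in MGE interneuron-like (512 and 607 CPM) and mural-like cells (767 and 602 CPM). Every neuronal class named here held more of it than RGC-like cells did (48.0 and 50.2 CPM). *Sema6b* and *Sema6c* were also lower in RGC-like cells than in the neuronal classes. *Sema6b*, a plexin-A4 ligand, was at 0.636 and 0.801 CPM in RGC-like and 16.0 and 19.8 in MGE interneuron-like cells. *Sema6c* was at 2.42 and 2.47 CPM in RGC-like and 43.4 and 30.2 in LGE-type neuron-like cells. *Sema7a*, anchored to the membrane by a lipid and bound by plexin-C1, was at 3.88 and 3.40 CPM in RGC-like, 19.6 and 19.9 in immature and 29.1 and 28.6 in upper-layer neuron-like cells.

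Among the receptors, *Plxna4* separated the classes of excitatory neurons. This plexin-A, which serves class 3 ligands with a neuropilin and class 6 ligands alone, rose from 22.4 and 14.0 CPM in RGC-like cells through 358 and 387 in IPC-like to 2146 and 2493 in immature excitatory neuron-like cells. It stayed at 2513 and 2842 CPM in upper-layer neuron-like cells, whereas deep-layer neuron-like cells held 83.4 and 119 CPM. *Plxna4* UMIs were found in 99.7% and 99.5% of upper-layer and 20.9% and 19.6% of deep-layer neuron-like cells, and in 11.8% and 4.26% of mural-like cells as the class that should lack it. Median depths were 11429.5 and 10254 UMIs in the upper-layer, 13243 and 11172 in the deep-layer and 10549 and 10449 in the mural-like class. Thinned to 3000 UMIs, the shares were 97.5% (95% interval 95.9% to 98.6%) and 98.0% (95% interval 96.8% to 98.9%) in the upper layers and 9.86% (95% interval 8.32% to 11.6%) and 11.2% (95% interval 9.62% to 12.9%) in the deep layers, with 3.92% and 0% in mural-like cells. Thinning leaves out shallower cells, so that 602 and 758 upper-layer, 1349 and 1447 deep-layer and 51 and 47 mural-like cells remained. Microglia-like cells, 20 and 24 of them, gave 20% and 16.7%, so the deep-layer shares were not above those of both comparison classes, whereas the upper-layer shares were. Whether microglia-like cells express *Plxna4* was not tested, so their share may not be background and cannot decide for the deep layers. Endothelial-like cells gave 559.9 and 26.3 CPM, a gap between the embryos of a class of few cells. An antisense gene, *Plxna4os3*, lies at the same locus and led some excitatory clusters. The matrices count it apart from *Plxna4*, and the chemistry keeps the strand, but whether the counting used it is not given in the sources used here, so the split of reads between *Plxna4* and its antisense gene is uncertain.

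*Plxna2*, a receptor for class 6 ligands, was more even among the classes of the excitatory lineage after the RGC-like stage. It was at 140.2 and 122 CPM in RGC-like, 638 and 732 in IPC-like, 1004 and 1104 in immature, 754 and 737 in upper-layer and 522 and 537 in deep-layer neuron-like cells. Cajal-Retzius-like cells, at 81.5 and 89.9 CPM, and mural-like cells, at 17.4 and 22.4, held less than any excitatory class. *Plxna1* was at 11.4 and 8.74 CPM in RGC-like and 44.3 and 37.4 in LGE-type neuron-like cells. *Plxna3*, a receptor for *Sema3f* signals, was at 9.93 and 7.68 CPM in RGC-like and 24.7 and 23.9 in deep-layer neuron-like cells.

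Plexins of types B, C and D had other distributions. *Plxnb2*, known from proliferating neural progenitors, was at 37.2 and 36.7 CPM in RGC-like, 17.0 and 17.6 in deep-layer neuron-like and 144 and 111 in microglia-like cells. *Plxnb1* was at 24.4 and 26.6 CPM in RGC-like and 10.3 and 10.1 in deep-layer neuron-like cells. *Plxnb3* gave 13 and 18 UMIs in whole libraries and passed the filter on low counts in neither fit. *Plxnc1*, the receptor of *Sema7a*, was at 54.9 and 60.7 CPM in RGC-like, 8.53 and 8.85 in IPC-like, 82.3 and 77.5 in CGE interneuron-like and 111 and 104 in LGE-type neuron-like cells. *Plxnd1*, the receptor of *Sema3e* and a vessel gene, was peaked in endothelial-like cells (111 and 181 CPM, 2.16 and 3.87 times the next class). Cajal-Retzius-like (30.4 and 44.2 CPM) and deep-layer neuron-like cells (8.99 and 11.9 CPM) held more of it than IPC-like cells did (0.640 and 0.708 CPM), where the level was that of a few UMIs.

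The neuropilins, which bind class 3 semaphorins and some VEGFs, were low in RGC-like cells. *Nrp1* was at 13.4 and 8.94 CPM there, at 133 and 117 in IPC-like, 714 and 731 in immature, 322 and 325 in upper-layer and 114 and 111 in deep-layer neuron-like cells. Endothelial-like cells, which use it as a VEGF co-receptor, held 442 and 537 CPM. *Nrp2* went from 5.16 and 1.60 CPM in RGC-like through 32.5 and 27.5 in IPC-like to 144 and 149 in immature cells, and was at 48.6 and 41.8 in deep-layer and 14.8 and 24.0 in upper-layer neuron-like cells. LGE-type (237 and 195 CPM), Cajal-Retzius-like (207 and 186 CPM) and CGE interneuron-like cells (172 and 179 CPM) were above MGE interneuron-like cells (74.4 and 54.6 CPM). In the layers *Nrp1* was higher in the upper and *Nrp2* in the deep class, although the direction of *Nrp2* turned when other cells were kept.

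**Figure D2:**
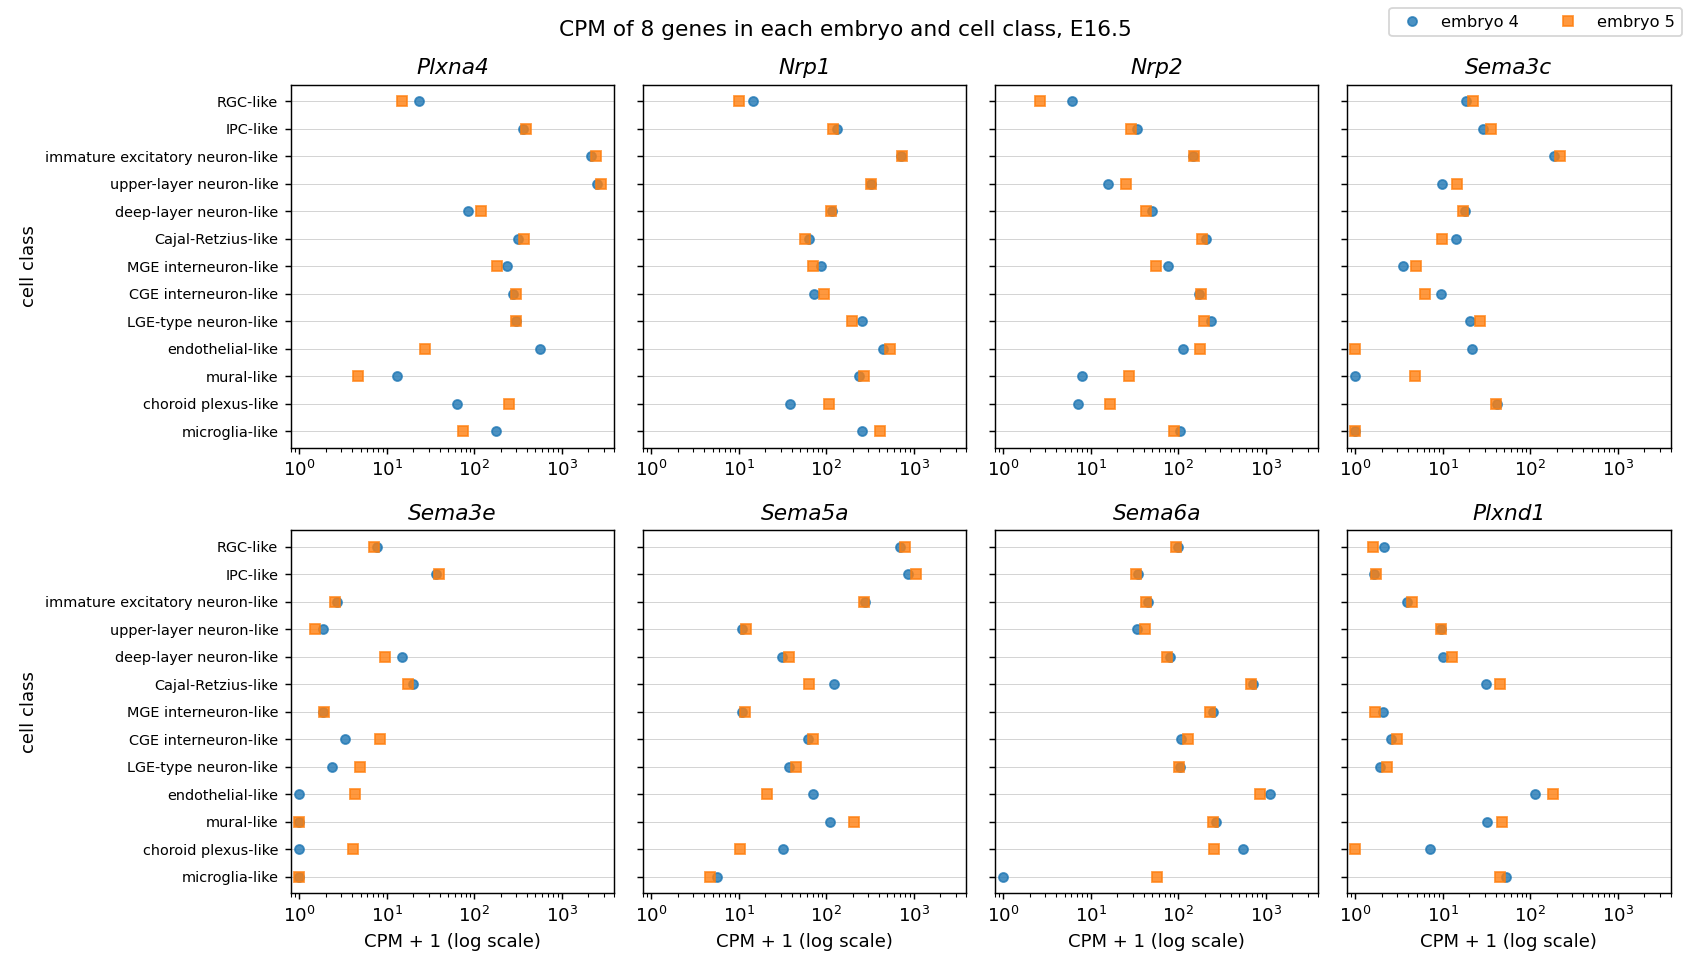
Levels of 8 members in each of 13 cell classes (vertical axis), as CPM plus 1 on a log axis (horizontal), with a circle for embryo 4 and a square for embryo 5. The embryos lie close together in the neural classes, and farther apart in classes of few cells, such as *Plxna4* in endothelial-like cells.

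Class 3 signalling through a neuropilin typically uses a plexin-A in the same cell, so cells with UMIs of both were counted, with at least 1 of *Plxna1*, *Plxna2*, *Plxna3* and *Plxna4*. Other plexins, among them *Plxnd1*, were not part of this count. Thinned to 3000 UMIs, *Nrp1* and a plexin-A were found together in 2.30% and 1.08% of RGC-like, 19.7% and 19.6% of IPC-like and 69.2% and 67.5% of immature excitatory neuron-like cells. As counted, the shares were 7.102% and 4.84% in RGC-like, 38.1% and 33.2% in IPC-like and 82.4% and 79.1% in immature cells. Among layer neurons the thinned share was 44.7% (95% interval 40.7% to 48.8%) and 43.8% (95% interval 40.2% to 47.4%) in the upper and 9.79% (95% interval 8.25% to 11.5%) and 9.47% (95% interval 8.01% to 11.1%) in the deep class, so the layers did not overlap. *Nrp2* with a plexin-A was found in 25.8% and 24.8% of immature, 2.99% and 3.43% of upper-layer and 4.74% and 4.08% of deep-layer neuron-like cells, and in 19.3% and 20.2% of CGE against 10.2% and 6.25% of MGE interneuron-like cells. As counted, these shares were 44.4% and 40.5% in immature, 6.03% and 7.03% in upper-layer and 9.72% and 7.74% in deep-layer cells, and 27.0% and 25.4% against 16.1% and 13.8% in the interneuron classes. Microglia-like cells held the *Nrp1* pair in 15% and 16.7% of thinned cells, from 20 and 24 cells. Whether they express plexin-A genes was not tested, so their pair shares may not be background. Their median depths were 8656 and 10133 UMIs as counted, where RGC-like cells had 10950.5 and 9754 and immature cells 8938 and 7604. The 95% intervals of their pair shares ran from 3.21% to 37.9% and from 4.74% to 37.4%. The immature and upper-layer shares lay above them. *Nrp1* itself was found in 35% and 66.7% of these microglia-like cells. Their pair share therefore cannot decide for RGC-like, IPC-like and deep-layer cells, which held *Nrp1* less often. The *Nrp2* pair was found in 10% and 0% of microglia-like cells, with intervals from 1.23% to 31.7% and from 0% to 14.2%, and in 0 of 51 and 0 of 47 mural-like cells. Against the microglia-like cells of embryo 4 none of the *Nrp2* shares stands beyond counting error, and the upper-layer, deep-layer and MGE-like shares of embryo 5 do not stand beyond it in that embryo either. These microglia-like cells held *Nrp2* itself in 20% and 12.5%, so their pair share alone cannot decide. The mural-like intervals ended at 6.98% and 7.55%. The immature and CGE-like shares of both embryos and the MGE-like share of embryo 4 lay above them. The upper-layer and deep-layer shares and the MGE-like share of embryo 5 did not. Mural-like cells, which do hold *Nrp1*, had the *Nrp1* pair in 1.96% and 4.26% of thinned cells, with intervals up to 10.4% and 14.5%. The IPC-like shares, with intervals from 17.1% in each embryo, lay above these, and the RGC-like and deep-layer shares did not.

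Differences between classes were tested on the sums with edgeR's quasi-likelihood test, with p-values Benjamini-Hochberg adjusted over all genes of a fit. The broad fit held the 8 sums of the 4 broad classes and 17644 genes, and the fine fit the 24 sums of 12 fine classes and 16224 genes, where endothelial-like and mural-like cells were summed as vascular-like. A gene was called at an adjusted p under 0.05. *Plxnb3* was too low for either fit and *Sema3b* for the broad one. All called members differed in the same direction in both embryos in each of the 8 comparisons. A call made from the same embryos makes this likely, and the share of all called genes that did so was not counted. Members that passed only through a class where they are high had to differ, so the counts describe the tested members and not the family as a whole. Each total count of the main fits stands beside the share of all tested genes called in the same direction.

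Excitatory neurons held more of most receptors and of most membrane ligands than progenitors did, and less of both class 5 semaphorins. *Nrp1* was at 431 and 448 CPM in excitatory neurons and 57.8 and 47.8 in progenitors, 9.37-fold higher (log2 fold change 3.23, SE 0.14, edgeR adjusted p = 2.14e-07). *Plxna4* was 10.4-fold higher, at 1256 and 1456 against 147 and 148 CPM (log2 fold change 3.37, SE 0.21, edgeR adjusted p = 1.38e-06). In the other direction *Sema5a* was 7.80-fold lower, at 95.4 and 92.3 against 756 and 892 CPM (log2 fold change -2.96, SE 0.12, edgeR adjusted p = 1.60e-07), and *Sema5b* 7.79-fold lower, at 29.5 and 29.5 against 243 and 275 CPM (log2 fold change -2.96, SE 0.095, edgeR adjusted p = 8.43e-08). In all, 17 members were higher and 9 lower of 29 tested, against 30.7% and 30.8% of all genes called higher and lower, so the higher share (58.6%) lay above the background and the lower share (31.03%) next to it. By role, 2 of 6 tested class 3 ligands were higher and 4 lower, 8 of 13 membrane ligands higher and 3 lower, and 7 of 10 receptors higher and 2 lower.

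Membrane ligands of class 6 and class 4 were among those with large differences. *Sema6b* was at 9.08 and 7.92 CPM in excitatory neurons and 0.790 and 0.848 in progenitors (log2 fold change 3.54, SE 0.22, edgeR adjusted p = 1.63e-06), and *Sema6d* at 321 and 419 against 45.4 and 50.4 CPM (log2 fold change 3.12, SE 0.19, edgeR adjusted p = 1.18e-06). *Sema4f* was at 10.1 and 9.90 against 0.593 and 1.53 CPM (log2 fold change 3.42, SE 0.34, edgeR adjusted p = 3.20e-05). The receptor *Plxnd1* was also higher, at 7.27 and 7.59 against 0.948 and 0.636 CPM (log2 fold change 3.39, SE 0.29, edgeR adjusted p = 1.22e-05), both low levels. Lower in excitatory neurons were *Plxnc1* at 16.6 and 17.2 against 37.4 and 41.7 CPM (log2 fold change -1.05, SE 0.085, edgeR adjusted p = 7.86e-06), *Sema3e* at 5.28 and 3.50 against 17.4 and 17.7 CPM (log2 fold change -1.82, SE 0.23, edgeR adjusted p = 0.000132) and *Sema3d* at 0.608 and 0.524 against 4.82 and 3.61 CPM (log2 fold change -2.71, SE 0.43, edgeR adjusted p = 0.000566). *Sema3g* rested on 5 and 4 UMIs in excitatory neurons and 17 and 14 in progenitors, and its call (log2 fold change -2.85, SE 0.64, edgeR adjusted p = 0.0053) was lost without either excitatory sum, at -2.91 and -2.70 on the log2 scale. The median log2 fold change of the 29 tested members was 1.42, beside -0.015 over all genes. *Sema4a*, *Sema4b* and *Plxnb2* were not called, at 0.74, 0.038 and -0.27 on the log2 scale. Scaling by library totals made 39.3% of all called genes higher in place of 49.9%, while the members then split into 17 higher and 10 lower.

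Interneurons held more *Nrp2* and more of several class 6 ligands than progenitors did, and less of both class 5 ligands. *Sema6d* was at 433 and 484 CPM in interneurons and 45.4 and 50.4 in progenitors, 9.98-fold higher (log2 fold change 3.32, SE 0.19, edgeR adjusted p = 1.09e-06). *Nrp2*, through which *Sema3f* repels migrating interneurons, was at 94.9 and 86.4 against 15.3 and 10.9 CPM (log2 fold change 2.85, SE 0.23, edgeR adjusted p = 8.24e-06). *Sema5a* was 34.1-fold lower, at 20.7 and 25.7 against 756 and 892 CPM (log2 fold change -5.09, SE 0.14, edgeR adjusted p = 5.48e-08), and *Sema3c* was at 3.81 and 4.23 against 21.1 and 25.8 CPM (log2 fold change -2.48, SE 0.25, edgeR adjusted p = 3.24e-05). Of the 29 tested members, 15 were higher and 8 lower, beside 28.5% and 31% of all genes, so 51.7% of the members against the first share and 27.6% against the second. The median log2 fold change was 0.64 for the members and -0.025 for all genes.

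Several membrane ligands were also higher in interneurons. *Sema6b* was at 13.8 and 16.1 against 0.790 and 0.848 CPM (log2 fold change 4.24, SE 0.24, edgeR adjusted p = 9.84e-07), *Sema6c* at 38.1 and 33.9 against 5.14 and 3.90 CPM (log2 fold change 3.05, SE 0.23, edgeR adjusted p = 6.70e-06) and *Sema4f* at 10.3 and 8.97 against 0.593 and 1.53 CPM (log2 fold change 3.25, SE 0.38, edgeR adjusted p = 9.30e-05). *Sema4g* was at 30.5 and 25.6 against 7.23 and 5.64 CPM (log2 fold change 2.18, SE 0.14, edgeR adjusted p = 2.76e-06). The embryos of the classes did not overlap for these 4 ligands. They were named for large differences of the same direction, and the share of all genes without overlap was not counted. Among the lower members *Sema5b* was at 68.9 and 61.0 against 243 and 275 CPM (log2 fold change -1.94, SE 0.097, edgeR adjusted p = 5.64e-07), *Sema3e* at 1.16 and 2.54 against 17.4 and 17.7 CPM (log2 fold change -3.19, SE 0.34, edgeR adjusted p = 5.59e-05) and *Sema4d* at 8.12 and 9.14 against 21.9 and 22.3 CPM (log2 fold change -1.30, SE 0.17, edgeR adjusted p = 0.000167). *Sema3g* had no UMI in interneurons and 17 and 14 in progenitors. With a floor of 3 UMIs over both embryos in place of 0 it was 2.52-fold lower, a value without counting error and not a limit. Its call was lost without any 1 of the 4 sums. The fitted values, which depend on the prior count, were then -6.80 and -6.99 without the progenitors of embryo 4 and 5 and -7.03 without either interneuron sum. Of the 10 tested receptors *Plxnb2* was lower, and *Plxna1* to *Plxna4*, *Nrp1* and *Nrp2* were higher.

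Set against excitatory neurons, interneurons held less *Plxna4*, *Nrp1* and *Sema3c*, and more *Sema6a*. Of the 10 tested receptors, 5 were lower and 2 higher in interneurons. *Sema6a* was at 219 and 203 CPM in interneurons and 54.8 and 52.8 in excitatory neurons, 3.63-fold higher (log2 fold change 1.86, SE 0.087, edgeR adjusted p = 1.23e-06). *Plxnc1* was at 46.1 and 41.7 against 16.6 and 17.2 CPM (log2 fold change 1.26, SE 0.092, edgeR adjusted p = 1.44e-05). *Plxna4* was 6.44-fold lower in interneurons, at 245 and 211 against 1256 and 1456 CPM (log2 fold change -2.69, SE 0.20, edgeR adjusted p = 1.65e-05), and *Nrp1* 6.02-fold lower, at 82.3 and 75.7 against 431 and 448 CPM (log2 fold change -2.59, SE 0.14, edgeR adjusted p = 2.47e-06). *Sema3c* was 21.8-fold lower, at 3.81 and 4.23 against 76.5 and 85.7 CPM (log2 fold change -4.45, SE 0.22, edgeR adjusted p = 1.76e-06). Of 29 tested members 6 were higher and 10 lower, where 13.4% and 17.7% of all genes were called. The members' shares, 20.7% and 34.5%, were above both. *Nrp2* was not among them, at 94.9 and 86.4 against 94.6 and 94.8 CPM and -0.18 on the log2 scale, which does not show that the classes have equal levels.

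Ligands accounted for further differences. *Sema4d* was at 8.12 and 9.14 against 52.0 and 57.7 CPM (log2 fold change -2.78, SE 0.16, edgeR adjusted p = 3.28e-06) and *Sema5a* at 20.7 and 25.7 against 95.4 and 92.3 CPM (log2 fold change -2.13, SE 0.13, edgeR adjusted p = 5.73e-06), although *Sema5a* lost its call at a Leiden resolution of 2, at -0.42 on the log2 scale. *Plxnd1* was at 1.16 and 1.02 against 7.27 and 7.59 CPM (log2 fold change -2.88, SE 0.37, edgeR adjusted p = 0.000451). *Sema5b* was higher in interneurons, at 68.9 and 61.0 against 29.5 and 29.5 CPM (log2 fold change 1.02, SE 0.097, edgeR adjusted p = 7.05e-05), as was *Plxnb1*, at 23.4 and 27.4 against 15.0 and 14.6 CPM (log2 fold change 0.66, SE 0.12, edgeR adjusted p = 0.00285). The calls of *Sema6b* (log2 fold change 0.70, SE 0.18, edgeR adjusted p = 0.0194) and *Sema3a* (log2 fold change 0.43, SE 0.091, edgeR adjusted p = 0.00688) were small and unsteady. Leaving out a sum took the call from *Sema6b* in each of 4 cases, at 0.50 to 0.76 on the log2 scale, from *Plxnb1* without the interneurons of embryo 5 (0.46), and from *Sema3a* without the interneurons of embryo 5 (0.28) or the excitatory neurons of embryo 4 (0.38). *Sema3a* also lost it with thinned cells (0.076) and with LGE-type cells counted as interneurons (0.18), and *Sema6b* with doublets kept (0.60). The members' median log2 fold change was -0.12, or -0.091 without *Sema3g*, beside -0.011 over all genes. Library totals turned the share of higher genes among all calls from 43.2% to 57.3%, and the members then counted 7 higher and 10 lower.

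From RGC-like to IPC-like cells several receptors for class 3 ligands were higher. *Plxna4* was 21.2-fold, *Nrp1* 11.5-fold, *Nrp2* 9.08-fold and *Plxna2* 5.41-fold higher in IPC-like cells. The ligand *Sema3e* was 5.96-fold higher, while *Plxnc1* was 6.42-fold lower. The tests gave a log2 fold change of 4.41, SE 0.44, edgeR adjusted p = 4.50e-08 for *Plxna4* and a log2 fold change of 3.53, SE 0.23, edgeR adjusted p = 4.36e-11 for *Nrp1*. For *Nrp2* it was a log2 fold change of 3.18, SE 0.32, edgeR adjusted p = 4.81e-08, for *Plxna2* a log2 fold change of 2.44, SE 0.20, edgeR adjusted p = 2.87e-09, and for *Sema3e* a log2 fold change of 2.58, SE 0.22, edgeR adjusted p = 8.16e-09. Of 30 tested members, 13 were higher and 7 lower, where 17.9% and 21.1% of all genes were called, so the higher share of 43.3% was above its background and the lower share of 23.3% near it. By role, 3 of 7 class 3 ligands were higher and 2 lower, 6 of 13 membrane ligands higher and 3 lower, and 4 of 10 receptors higher and 2 lower.

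Members lower in IPC-like cells belonged to every role. *Plxnc1* had a log2 fold change of -2.68, SE 0.18, edgeR adjusted p = 1.11e-10, *Sema4d* a log2 fold change of -1.53, SE 0.19, edgeR adjusted p = 9.31e-07 and *Sema6a* a log2 fold change of -1.49, SE 0.21, edgeR adjusted p = 4.56e-06. *Sema5b* was lower by less (log2 fold change -0.98, SE 0.16, edgeR adjusted p = 3.80e-05), whereas *Sema5a* was not called, at 0.41 on the log2 scale. *Sema3d* (log2 fold change -2.45, SE 0.52, edgeR adjusted p = 0.000848) stood on 12 and 7 UMIs in IPC-like and 110 and 78 in RGC-like cells. *Sema3f* (log2 fold change -1.43, SE 0.27, edgeR adjusted p = 0.000216) lost its call with thinned cells, at -1.20 on the log2 scale. *Sema3g* had 17 and 14 UMIs in IPC-like cells and none in RGC-like cells. With the same floor in place of 0 it was 17.8-fold higher, a value without counting error and not a limit. The median log2 fold change was 0.34 for the 30 tested members and -0.044 for all genes. A large RGC-like cluster and a smaller IPC-like one were led by cell cycle genes such as *Top2a*, and another RGC-like cluster of 318 cells was led by *Ano1*, *Ntn1*, *Otx2os1* and *Fgf15*. It had no RGC marker among its 10 leading genes, though 12 RGC markers were detected in it, and it was the only RGC-like or IPC-like cluster with a GABAergic marker score above -1, at -0.12. Whether its cells belong to the cortex was not tested, and levels given for RGC-like cells include it. The count of called members was 20 without this cluster and 20 without the clusters led by cell cycle genes.

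In the main fit most of the tested members were higher in immature excitatory neuron-like than in IPC-like cells. With at least 500 genes a cell, or with a mitochondrial limit of 5%, 15 of 30 were higher and 4 lower. *Sema3c* was 7.23-fold higher, *Sema6d* 11.1-fold, *Plxna4* 6.95-fold, *Nrp1* 6.45-fold and *Nrp2* 5.44-fold. *Sema3e* went the other way and was 20.1-fold lower. The edgeR values were a log2 fold change of 2.85, SE 0.15, edgeR adjusted p = 3.06e-12 for *Sema3c*, a log2 fold change of 3.47, SE 0.37, edgeR adjusted p = 8.85e-08 for *Sema6d* and a log2 fold change of 2.80, SE 0.40, edgeR adjusted p = 5.51e-06 for *Plxna4*. Those of the neuropilins were a log2 fold change of 2.69, SE 0.20, edgeR adjusted p = 3.96e-10 for *Nrp1* and a log2 fold change of 2.44, SE 0.24, edgeR adjusted p = 2.30e-08 for *Nrp2*. Higher were 20 and lower 4 of 30 tested members, against 22.6% and 16.9% of all genes. The share of members higher, 66.7%, was above the background, and that of members lower, 13.3%, near it. Of the receptors, 8 of 10 tested were higher and 0 lower, and *Plxna1* and *Plxnb1* were not called. Among class 3 ligands 3 of 7 were higher and 2 lower, and among membrane ligands 9 of 13 were higher and 2 lower.

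The members that fell at this step were *Sema3e*, *Sema3g* and both class 5 ligands. *Sema3e* had a log2 fold change of -4.33, SE 0.27, edgeR adjusted p = 3.49e-11, *Sema5a* a log2 fold change of -1.66, SE 0.17, edgeR adjusted p = 7.61e-08 and *Sema5b* a log2 fold change of -1.50, SE 0.17, edgeR adjusted p = 2.30e-07. *Sema3g*, on 4 and 2 against 17 and 14 UMIs (log2 fold change -2.90, SE 0.73, edgeR adjusted p = 0.00505), lost its call with thinned cells (-2.36) and without the immature cells of embryo 5 (-2.60). *Sema4f*, low in IPC-like cells, had a log2 fold change of 2.62, SE 0.40, edgeR adjusted p = 1.64e-05. The median log2 fold change was 0.75 for the members and 0.057 over all genes. With library totals 40.5% of all called genes were higher in place of 57.2%, and the members then counted 16 higher and 4 lower. The receptors *Plxna4*, *Nrp1*, *Nrp2* and *Plxna2* and the ligands *Sema3c*, *Sema4c*, *Sema4g*, *Sema6c* and *Sema7a* were thus higher at both steps. *Sema5b* was lower at both. The steps share the sums of IPC-like cells, so their values are given side by side and were not tested against each other.

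Upper-layer and deep-layer neuron-like cells differed in *Plxna4* more than in any other called member. The receptor was 25.1-fold higher in the upper class (log2 fold change 4.65, SE 0.43, edgeR adjusted p = 3.25e-08). *Nrp1*, its partner in class 3 receptors, was 2.73-fold higher (log2 fold change 1.45, SE 0.19, edgeR adjusted p = 6.38e-06), and their common ligand *Sema3a* 7.56-fold higher (log2 fold change 2.92, SE 0.18, edgeR adjusted p = 4.74e-11). The deep class held 17.6-fold more *Sema3e*, a log2 fold change of -4.14, SE 0.39, edgeR adjusted p = 5.91e-08 in the upper against the deep class. Of 30 tested members, 6 were higher and 7 lower in the upper class, against 9.01% and 13% of all genes, and the members' shares of 20% and 23.3% were above both. The split was unsteady, with 10 higher and 4 lower with at least 2000 genes a cell, 10 and 6 with a wider neighbourhood for doublet scores, 9 and 6 with a mitochondrial limit of 5% and 5 and 4 with thinned cells. Without the deep class of embryo 4 it was 5 and 4, and without that of embryo 5 it was 6 and 4. The shares of all genes called under these settings were not set beside the counts. By role the counts of higher and lower were 1 and 3 of 7 class 3 ligands, 3 and 2 of 13 membrane ligands, and 2 and 2 of 10 receptors.

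Class 5 ligands split between the layers. *Sema5b* was higher in the upper class (log2 fold change 2.57, SE 0.25, edgeR adjusted p = 8.20e-08) and *Sema5a* lower (log2 fold change -1.74, SE 0.22, edgeR adjusted p = 3.60e-06). *Sema6a* was lower too (log2 fold change -1.13, SE 0.21, edgeR adjusted p = 0.000253), and *Sema6d* and *Sema6c* higher (log2 fold change 1.24, SE 0.33, edgeR adjusted p = 0.00836 for *Sema6d*, log2 fold change 0.68, SE 0.16, edgeR adjusted p = 0.00269 for *Sema6c*). *Sema6d* was not called without the upper class of embryo 5 (1.02 on the log2 scale) or the deep class of embryo 4 (1.05), and *Sema6c* not with thinned cells (0.45). For *Nrp2* (log2 fold change -1.29, SE 0.26, edgeR adjusted p = 0.000707) and *Sema3c* (log2 fold change -0.62, SE 0.19, edgeR adjusted p = 0.0214) the sign depended on which cells formed the classes. Keeping only cells with at least 2000 genes gave 1.16 for *Nrp2* and 1.20 for *Sema3c*, and a mitochondrial limit of 5% gave 1.55 and 2.90. With doublets kept *Nrp2* was at -0.013 and not called and *Sema3c* at 1.94, with the wider doublet neighbourhood they were at 0.43 and 1.504, and with thinned cells *Sema3c* was at -0.39 and not called. Their lower level in the upper class thus holds for the cells kept here and not for these alternatives. *Sema3f* (log2 fold change -0.54, SE 0.19, edgeR adjusted p = 0.0437) lost its call in 9 of 23 alternatives, among them the sums without the upper class of embryo 5 (-0.31) and without either deep sum (-0.51 and -0.56), with -0.40 to -0.55 with thinned cells, a Leiden resolution of 0.5, library totals or no filter on low counts. *Sema3c* lost its call without the upper class of embryo 4 (-0.33) or either deep sum (-0.58 and -0.65). The median log2 fold change of the members was -0.046, or 0.039 without *Sema3g*, which is under the floor in both classes, beside -0.042 over all genes. With library totals 52.8% of all called genes were higher in place of 40.8%, and 6 members were higher and 5 lower.

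CGE and MGE interneuron-like cells differed in several ligands. *Sema3a* was 4.05-fold lower in CGE-like cells (log2 fold change -2.02, SE 0.21, edgeR adjusted p = 5.22e-07), and *Sema6d* 4.74-fold lower (log2 fold change -2.24, SE 0.37, edgeR adjusted p = 0.000217). *Sema5a* was 5.68-fold higher (log2 fold change 2.51, SE 0.28, edgeR adjusted p = 1.36e-06), a call that 4 of 23 alternatives ended or turned. Among receptors *Nrp2* was 2.42-fold higher in CGE-like cells (log2 fold change 1.28, SE 0.26, edgeR adjusted p = 0.00178) and *Plxnc1* 2.16-fold (log2 fold change 1.11, SE 0.20, edgeR adjusted p = 0.000518), whereas *Nrp1* and *Plxna4* were not called, at -0.06 and 0.30 on the log2 scale. Of 30 tested members 6 were higher and 5 lower, where 4.31% and 6.64% of all genes were called, and the members' shares were 20% and 16.7%. Receptors made up 3 of the 6 higher members and none of the lower ones.

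The count of called members was unsteady here as well. CGE-like clusters of 181 and 118 cells and an MGE-like one of 34 cells were shallow, and leaving out all clusters of low depth, an alternative chosen after seeing the data, brought the called members from 11 to 6, 3 of them higher and 3 lower. The higher members also numbered 3, with 5 lower, with at least 2000 genes a cell, with doublets kept or at a Leiden resolution of 0.5, and 2, with 6 lower, at a resolution of 2. Thinned cells gave 5 higher and 3 lower. The share of all genes called under these alternatives was not set beside the counts, so the changes may not be particular to the members. The median depth was 4058 and 5398 UMIs in CGE-like and 6236 and 6307 in MGE-like cells, and the erythroid markers of embryo 4 stood at 9989 CPM in CGE-like and 1109 CPM in MGE-like cells. The part of either in the result was not tested. *Sema6a* (log2 fold change -1.20, SE 0.22, edgeR adjusted p = 0.000585) lost its call among clusters of ordinary depth (-0.52 on the log2 scale), as did *Sema3f* (log2 fold change -2.05, SE 0.39, edgeR adjusted p = 0.000979, then -1.63), *Plxnb2* (log2 fold change 1.43, SE 0.30, edgeR adjusted p = 0.00256, then 0.68), *Sema5b* (log2 fold change 0.69, SE 0.21, edgeR adjusted p = 0.0391, then 0.55) and *Sema3e* (then 1.53). *Plxnb2* lost its call in 7 of 23 alternatives in all, the others being doublets kept (0.75), another limit on genes or mitochondrial share and another Leiden resolution (up to 1.13). *Sema5a* was not called with doublets kept (0.045), with at least 2000 genes a cell (0.41) or at a Leiden resolution of 0.5 (0.84), and turned to -1.80 at a Leiden resolution of 2, where *Nrp2* was at 0.59 and not called. *Sema3e* (log2 fold change 2.33, SE 0.71, edgeR adjusted p = 0.0363), at 2.35 and 7.29 against 0.840 and 0.910 CPM, changed its call or its sign in 11 of 23 alternatives, to -2.39 at that resolution and -0.83 with doublets kept, and was not called at 0.26 with at least 2000 genes, 0.72 at a resolution of 0.5, 2.04 with the wider doublet neighbourhood, 2.99 with at least 500 genes and 3.84 with thinned cells. Leaving out a sum ended calls as well. *Sema3e* was at 1.27 without the CGE-like cells of embryo 5 and at 2.32 and 2.47 without either MGE-like sum, *Sema3f* at -1.50 without the CGE-like cells of embryo 5, and *Sema5b* at 0.77, 0.75 and 0.63 in 3 of 4 cases. *Sema5b* was also not called with a mitochondrial limit of 5% (0.67), nor *Sema3f* with thinned cells (-1.75). *Sema6b* (log2 fold change -1.89, SE 0.35, edgeR adjusted p = 0.0007) lost its call with at least 2000 genes a cell (-1.42) and with thinned cells (-1.70). *Sema3d* had no UMI in CGE-like and 20 in MGE-like cells and was not called. With the floor of 3 UMIs in place of 0 it was 2.03-fold lower, a value without counting error. The members' median log2 fold change was -0.15, or -0.22 with that floor value and without *Sema3b* and *Sema3g*, beside -0.082 over all genes. The share of higher genes among all calls was 39.4%, and 50.5% or 61.0% with DESeq2 size factors or library totals, with 6 members higher and 5 lower under both.

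Of the 30 tested members 7 were higher in vascular-like cells than in the mean of the RGC-like, IPC-like, excitatory and interneuron-like classes. They included *Plxnd1* (log2 fold change 4.81, SE 0.27, edgeR adjusted p = 1.20e-12), *Sema6a* (log2 fold change 2.45, SE 0.15, edgeR adjusted p = 5.75e-12) and *Sema3g*. *Sema3g* passed the filter on low counts only through vascular-like cells, where it is high. It therefore had to differ, and no p-value is given for it. The fitted size for *Sema3g* depends on the prior count, since RGC-like and interneuron-like cells held no UMI of it. *Nrp1*, which vessels share with neurons, was 2.50-fold higher than that mean of classes (log2 fold change 1.32, SE 0.17, edgeR adjusted p = 5.61e-07). Immature excitatory neuron-like cells still held more of it than endothelial-like cells, at a mean of 723 against 489 CPM. Endothelial-like and mural-like cells, 75 and 77 in all, differed within the class, since *Plxnd1* was at 111 and 181 against 31.3 and 46.7 CPM and *Nrp2* at 111 and 174 against 6.95 and 26.2 CPM. *Sema4c* (log2 fold change 1.57, SE 0.22, edgeR adjusted p = 3.43e-06) and *Sema6d* (log2 fold change 1.54, SE 0.25, edgeR adjusted p = 1.97e-05) were higher as well, and both stood higher in mural-like than in endothelial-like cells of the same embryo. Lower were 12 members. Of all genes 24.3% were higher and 25.1% lower, so the members' higher share of 23.3% was at the background and their lower share of 40% above it. The lower members numbered 7 and not 12 without the vascular cells of embryo 5, 10 without those of embryo 4 and 8 with thinned cells, beside 7, 7 and 8 higher.

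The 12 members lower in vascular-like cells included ligands and receptors, while *Nrp2* and *Sema4d* were not called, at 0.29 and 0.27 on the log2 scale. *Sema3a* had a log2 fold change of -3.11, SE 0.32, edgeR adjusted p = 3.07e-08, *Plxnc1* a log2 fold change of -3.19, SE 0.51, edgeR adjusted p = 1.52e-05 and *Plxna3* a log2 fold change of -2.70, SE 0.47, edgeR adjusted p = 4.92e-05, the last on few UMIs and not called with thinned cells (-1.62). *Sema4b* rested on 1 and 0 UMIs in endothelial-like and 1 and 1 in mural-like cells, and the pooled neural classes held 10.03 (3.43 to 48.6) times the vascular level, with the 95% counting interval in parentheses (edgeR adjusted p = 6.48e-06). *Sema3e*, with 0 and 1 UMIs in endothelial-like and 0 and 0 in mural-like cells, was 14.7 (2.64 to 583) times higher in the pooled neural classes, with a log2 fold change of -2.75, SE 1.11, edgeR adjusted p = 0.0453. That value changed its call or sign in 28 of 35 alternatives, to 0.055 with at least 2000 genes a cell, 0.075 with a mitochondrial limit of 5% and -0.58 with doublets kept, -7.91 with the wider doublet neighbourhood and -5.78 with thinned cells, and between -7.66 and -1.87 without a vascular sum. It was not called with the embryo as a block (-2.75) or without any 1 of 11 neural sums, at -2.55 to -2.73. *Sema4f*, with 0 and 0 UMIs in endothelial-like and 0 and 1 in mural-like cells, was 10.6 (1.91 to 421) times higher in the pooled neural classes (edgeR adjusted p = 0.0251) and lost its call in 5 of 35 alternatives, at -6.32 with thinned cells, -2.63 with the wider doublet neighbourhood, -3.04 with DESeq2's Wald test, and without either vascular sum, at fitted values of -2.27 and -8.07 that depend on the prior count. Scaling by library totals or DESeq2 size factors moved the median of all genes by 0.20 and 0.16 on the log2 scale, and the share of higher genes among all calls from 49.2% to 60.3% and 57.9%, with 7 members higher and 11 lower under both. The members' median was -0.94, or -0.48 without the genes that had no vascular UMI, beside -0.17 over all genes. In the other comparisons library totals moved that median by over 0.1 for excitatory neurons against progenitors (-0.17), interneurons against excitatory neurons (0.11), immature against IPC-like cells (-0.15) and CGE against MGE interneuron-like cells (0.14), and no member named here changed direction with the scaling.

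Genes that act with the family were followed as a list of 52, of which 51 were tested and *Timd2* was too low. Against progenitors, 25 were higher and 16 lower in excitatory neurons (49.0% and 31.4%, beside 30.7% and 30.8% of all genes), and 24 were higher and 14 lower in interneurons (47.1% and 27.5%, beside 28.5% and 31% of all genes). The adhesion partners *Cntn2*, *Chl1* and *L1cam*, which join neuropilins and plexins at the surface, were high in excitatory neurons, with *Cntn2* at 239.7 and 253 against 7.19 and 5.30 CPM (log2 fold change 5.47, SE 0.21, edgeR adjusted p = 1.41e-07). *Chl1* had a log2 fold change of 4.88, SE 0.21, edgeR adjusted p = 2.07e-07 in excitatory neurons and a log2 fold change of 4.76, SE 0.21, edgeR adjusted p = 2.92e-07 in interneurons, and *L1cam* a log2 fold change of 4.01, SE 0.16, edgeR adjusted p = 1.43e-07 in excitatory neurons. The receptor kinase *Erbb2*, a partner of plexin-B receptors, was low in both, at -5.58 (SE 0.37) on the log2 scale in excitatory neurons, while progenitors held 20.5 (6.94 to 100.2) times the level of interneurons, which had 3 UMIs of it, and the GTPase *Rras*, on which plexins act, likewise, at -3.94 (SE 0.27) and -4.07 (SE 0.41). *Vegfc*, a ligand of neuropilin-2, was lower in excitatory neurons than in progenitors (log2 fold change -2.84, SE 0.22, edgeR adjusted p = 5.53e-06). *Met*, which pairs with plexin-B1, and *Cdk5r1*, the activator of *Cdk5*, were higher in interneurons than in progenitors, at 3.55 (SE 0.36) and 3.48 (SE 0.19), and the integrin *Itga1* was lower, at -2.15 (SE 0.25). Between interneurons and excitatory neurons 8 were higher and 12 lower (15.7% and 23.5%, beside 13.4% and 17.7% of all genes), among them *Vegfc* at 2.61 (SE 0.23) and the CRMP *Dpysl4* at 1.66 (SE 0.18) on the higher side and *Cntn2* at -3.92 (SE 0.21) and the GTPase *Rnd2* at -3.09 (SE 0.15) on the lower. *Vegfd*, with 3 UMIs in interneurons, was 9.72 (3.29 to 47.4) times higher in excitatory neurons, with the 95% counting interval. *Met*, at 1.37 (SE 0.30), lost its call without the excitatory neurons of embryo 4 (1.10) or the interneurons of embryo 5 (1.10).

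The genes of the list also differed along the excitatory lineage. From RGC-like to IPC-like cells 17 were higher and 12 lower of 51 (33.3% and 23.5%, beside 17.9% and 21.1% of all genes), so the lower share was near the background. All 5 CRMP proteins, which link the receptors to microtubules, were higher. *Rnd2*, known from the migration of newborn neurons, went from 12.2 and 10.4 to 133 and 121 CPM (log2 fold change 3.54, SE 0.15, edgeR adjusted p = 3.87e-14), and *L1cam* (log2 fold change 2.17, SE 0.20, edgeR adjusted p = 9.63e-09) and *Mical2* (log2 fold change 2.30, SE 0.39, edgeR adjusted p = 6.50e-05) were higher, while *Itga1*, *Erbb2* and *Rnd1* were lower, at -2.97 (SE 0.27), -2.53 (SE 0.45) and -1.71 (SE 0.25). From IPC-like to immature cells 22 were higher and 9 lower (43.1% and 17.6%, beside 22.6% and 16.9% of all genes), the lower share again near the background, and 6 of 7 kinases were higher. *Cntn2* went from 8.85 and 9.67 to 161 and 172 CPM (log2 fold change 4.32, SE 0.18, edgeR adjusted p = 7.78e-14), with *Chl1* at 3.58 (SE 0.33) and *L1cam* at 2.74 (SE 0.14), and *Rras* and *Dpysl4* were lower at -2.02 (SE 0.34) and -1.95 (SE 0.18). *Erbb2* had 1 UMI in immature cells and was 38.5 (6.22 to 1589) times higher in IPC-like cells, with the 95% counting interval. Between upper-layer and deep-layer neuron-like cells 6 were higher and 9 lower (11.8% and 17.6%, beside 9.01% and 13% of all genes), both close to the background. *Dpysl4* stood at 2.42 and 1.501 against 29.96 and 30.3 CPM (log2 fold change -4.03, SE 0.26, edgeR adjusted p = 8.78e-11) and *Vegfd* was lower at -2.96 (SE 0.46), whereas *Cntn2* and the kinase *Fyn* were higher at 1.40 (SE 0.14) and 0.81 (SE 0.14). *Flt4* (fitted at -3.70 to -1.38 where not called), with 2 UMIs in the upper class and 5.81 (1.46 to 50.4) times higher in the deep class, lost its call in 16 of 23 alternatives, among them each of the 4 sums left out, at -2.09 to -2.72 on the log2 scale, and *Vegfc*, at 1.68 (SE 0.42), lost it without the upper class of embryo 4 (1.46) or the deep class of embryo 5 (1.54).

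In CGE against MGE interneuron-like cells 4 were higher and 8 lower of the 51 (7.84% and 15.7%, beside 4.31% and 6.64% of all genes). The GTPase *Rnd3* was at 334 and 377 against 71.0 and 62.8 CPM (log2 fold change 2.24, SE 0.15, edgeR adjusted p = 6.29e-10), *Robo1*, a receptor of slits, at 1.81 (SE 0.20) and *Ranbp9* at 0.73 (SE 0.11). *Chl1* and *Vegfc* were lower, at -2.52 (SE 0.33) and -2.04 (SE 0.49), and *Mical2*, with 2 UMIs in CGE-like cells, was 15.7 (4.23 to 131) times higher in MGE-like cells, with the 95% counting interval. Without the clusters of low depth *Ranbp9* was at 0.38 and *Vegfc* at -1.05, neither of them called. *Vegfc* lost its call in 7 of 23 alternatives, also with at least 2000 genes a cell (-1.22), doublets kept (-1.24), a Leiden resolution of 0.5 (-1.44) or 2 (-1.13), and without the CGE-like cells of embryo 4 (-1.39) or the MGE-like cells of embryo 5 (-1.77). *Robo1* was not called at a Leiden resolution of 2 (0.70) or with doublets kept (1.18), and *Mical2* not with thinned cells (-3.30). In vascular-like cells 18 were higher and 20 lower (35.3% and 39.2%, beside 24.3% and 25.1% of all genes), and all 5 CRMP proteins were lower. The VEGF receptors *Flt1* and *Kdr*, which neuropilins assist, were at 9.01 (SE 0.18) and 7.98 (SE 0.28) on the log2 scale and the integrin *Itga1* at 9.29 (SE 0.11). *Mras* and *Nrcam* were lower, at -4.61 (SE 0.36) and -4.21 (SE 0.28), and *Dpysl4*, with 1 vascular UMI, was 37.1 (6.66 to 1467) times higher in the pooled neural classes. *Kdr* was at 2.22 and not called with a wider neighbourhood for the doublet scores.

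The members are spread over the genome, with some neighbours. On the GRCm38.p6 build *Sema3d* (chr5:12383161-12588953), *Sema3a* (chr5:13124822-13603485), *Sema3e* (chr5:14025276-14256689) and *Sema3c* (chr5:17574816-17730268) follow each other on chromosome 5, and *Sema3b* (chr9:107597674-107609241) and *Sema3f* (chr9:107681499-107710475) on chromosome 9. Among the cells kept here, the genes of the first group had different levels across classes, with *Sema3c* peaked in immature cells, *Sema3e* highest in IPC-like cells and *Sema3d* scarce in both. Of the receptors described most here, *Plxna4* (ENSMUSG00000029765) lies at chr6:32144543-32588192, *Nrp1* (ENSMUSG00000025810) at chr8:128358591-128505476 and *Nrp2* (ENSMUSG00000025969) at chr1:62703317-62818692, and the identifier of *Sema3c* is ENSMUSG00000028780.

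Since many members rose together between IPC-like and immature cells, the 250 bases before each gene start were searched for CAGATG on both strands (CATCTG on the other), an E-box of the kind that proneural factors such as *Neurod1* and *Neurog2* bind. The motif and the genes were chosen after the values were seen. Promoters in the RefSeq table of build GRCm38.p6 matched 26 of the 31 members, and 2 of these, *Sema3c* and *Sema4a*, held the letters (7.69%), beside 16.3% of 27025 genes in the table. Among the members higher in immature cells, 17 of 20 matched and 1 held them (5.88%). With 2 and 1 promoters holding the letters, the counts are too few to set the members apart from all genes, and the difference was not tested. A match is a description of letters and not a site, and says nothing of which factor binds. The stretch before *Sema3c*, the member peaked in immature cells among the cells kept here, is shown for its 1 match, in capitals, 200 bases before the start, on the plus strand at chr5:17574566-17574815, directly upstream of the annotated gene.
Sema3c promoter: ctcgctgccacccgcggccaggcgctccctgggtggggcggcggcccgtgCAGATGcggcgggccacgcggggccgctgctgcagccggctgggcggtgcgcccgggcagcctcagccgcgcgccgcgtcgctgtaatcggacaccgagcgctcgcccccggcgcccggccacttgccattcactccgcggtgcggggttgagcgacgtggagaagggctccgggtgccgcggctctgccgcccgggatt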

How the data were processed

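Single cells of the cortex of 2 embryos were profiled, 1 library each. The files hold UMI counts per gene and barcode as deposited by the authors, not normalised, made with Cell Ranger on the mm10 build. The submitters' processing notes give version 7.0.0 and the matrix headers 7.1.0. Whether introns were counted, and on which strand, is not given in the sources used here. Barcodes with fewer than 1000 detected genes (1772 and 765) or a mitochondrial share above 10% (174 and 56) were left out, as were 947 and 1052 barcodes with the highest doublet scores, set against simulated pairs of cells, which left 9932 and 10416. With Python 3.11.15 and scanpy 1.11.5, cells were clustered on 2000 variable genes, without the members and pathway genes, from 30 principal components, 20 neighbours and the Leiden method at resolution 1, giving 29 clusters and, after splitting mixed ones, 60. Classes were rebuilt from marker lists, so they may differ from the study's. The neighbours behind the doublet scores, the naming rule and its thresholds, the splitting and the broad classes were set after seeing the clusters. The last 2 naming rules, on shallow clusters and on leading genes against a name, were applied after member values had been seen, and left 2 clusters unnamed. For each class the UMIs of an embryo's cells were added up and these sums tested with edgeR 4.0.16 in R 4.3.3 (TMM scaling, filterByExpr, quasi-likelihood test, Benjamini-Hochberg adjustment). The steps were tested on simulated data. Embryo numbers pair the sums, because sums of the same number come from the same animal. Deviations from the class means correlated across genes with a median r of 0.131 over 6 pairs of broad classes and 0.0361 over 66 pairs of fine ones. In each comparison at most 6 called members and 3 called pathway genes per direction were named with statistics, those with the largest differences of the same direction in both embryos. Uncalled members named with values, the genes for shares of cells, the receptor pairs, the motif and the promoter were chosen after values were seen. Members and lists were chosen with earlier results of these data known. Alternatives changed the filters on cells and genes, the doublets, the resolution, the naming margin, the classes in the fit, the scaling, the test (DESeq2 1.42.0), the sums used and the embryo as a block. Leaving out shallow clusters or progenitor clusters with GABAergic markers, and a wider neighbourhood for doublet scores, were chosen after seeing the data.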

Additional observations from a re-analysis of the deposited data

How the results depend on the processing

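The numbers of called members were 26, 23, 16, 20, 24, 13, 11, 19 for the comparisons in the order of the list that follows. With 1 sum left out in turn they ran from 23 to 26 for excitatory neurons against progenitors, 20 to 21 for interneurons against progenitors, 12 to 14 for interneurons against excitatory neurons, 19 to 20 for IPC-like against RGC-like cells, 20 to 21 for immature against IPC-like cells, 9 to 11 for upper-layer against deep-layer cells, 8 to 10 for CGE against MGE interneuron-like cells, 14 to 19 for vascular-like against neural classes, where the lone sample of a class is assumed to vary like the other classes. Under the other settings they were 23 to 27, 21 to 25, 15 to 18, 17 to 21, 19 to 24, 9 to 16, 6 to 12, 16 to 20. CGE against MGE interneuron-like cells gave 6 in place of 11 without the clusters of low depth, and the cause was not tested. The split into higher and lower moved by more than 1.5 times in 3 comparisons. Between upper-layer and deep-layer cells it went from 6 and 7 to 10 and 4 with at least 2000 genes a cell, 10 and 6 with the wider doublet neighbourhood, 5 and 4 with thinned cells, and 5 and 4 or 6 and 4 without a deep sum. Between CGE-like and MGE-like cells it went from 6 and 5 to 3 and 5 with at least 2000 genes, doublets kept or a Leiden resolution of 0.5, 2 and 6 at a resolution of 2, 5 and 3 with thinned cells and 3 and 3 without the clusters of low depth. In vascular-like cells it went from 7 and 12 to 7 and 7 without the sum of embryo 5. No count under an alternative, here or with the comparisons, stands beside the share of all genes called under that setting. Changes in these counts may therefore not be particular to the members.

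With the embryo as a replicate block the counts were 27, 23, 18, 21, 24, 15, 12, 18, none of them more than 1.5 times away. Of the named calls the block ended that of *Sema3e* in vascular-like cells, at -2.75 on the log2 scale, and no other.

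Single values turned direction between upper-layer and deep-layer cells for *Nrp2*, to 1.16 with at least 2000 genes a cell, 1.55 with a mitochondrial share up to 5% and 0.43 with the wider neighbourhood for doublet scores on the log2 scale, and for *Sema3c*, to 1.20, 2.90 and 1.504 under the same settings and 1.94 with doublets kept. Between CGE-like and MGE-like cells *Sema5a* turned to -1.80 and *Sema3e* to -2.39 at a Leiden resolution of 2, and *Sema3e* to -0.83 with doublets kept. In vascular-like cells *Sema3e* turned to 0.055 with at least 2000 genes and 0.075 with the mitochondrial limit of 5%. The cause was not tested for any of these. Of 93 named member values 24, and of 48 pathway values 8, lost their call or turned under at least 1 alternative.

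Thinning moved the shares of cells with a UMI of *Plxna4* to 97.5% and 98.0% in upper-layer, 9.86% and 11.2% in deep-layer and 3.92% and 0% in mural-like cells, and of *Sema3c* to 33.5% and 37.7% in immature and 1.495% and 2.90% in upper-layer cells. All 20 shares of receptor pairs moved as well. Thinning removes UMIs by construction. Classes of few cells, such as endothelial-like and microglia-like, limit the levels given for them to a few UMIs in low members.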
